A study of Mus musculus with 27 samples.

Results

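The Rhox genes (reproductive homeobox on the X) encode a family of homeodomain transcription factors that lie side by side on the mouse X chromosome. They are known for expression in testis, epididymis, ovary and placenta, and in males Rhox5 supports germ cell survival. The cluster is divided into an alpha, a beta and a gamma part, and Rhox2, Rhox3 and Rhox4 of the alpha part have been duplicated several times into near-identical copies. CpG methylation of Rhox promoters is a known mark of their silencing in somatic tissues, and DNMT3B is a de novo DNA methyltransferase that places such methylation after implantation.

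The members described here are the 31 genes of the table whose name starts with Rhox together with Gm9, a gene at the proximal end of the cluster, which makes 32 of 24065 genes. By number, 22 belong to the alpha part (Rhox1 to Rhox4), 5 to the beta part (Rhox5 to Rhox9) and 4 to the gamma part (Rhox10 to Rhox13). The alpha part holds 8 copies of Rhox2, 6 of Rhox3 and 7 of Rhox4. In the RefSeq annotation of GRCm38.p6, the same assembly as mm10, the members span chromosome X from 37208502 to 38129966, a distance of 921.465 kb.

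RNA-Seq was performed on whole C57BL/6J embryos at embryonic day 8.5 (E8.5), 3 WT embryos and 3 Dnmt3b-/- littermates from matings of heterozygous parents. Each library came from a single embryo without pooling. The mutant alleles were made by crossing mice with a floxed Dnmt3b gene to an ACTB-Cre line, which deletes in all tissues, and they encode an inactive enzyme. The raw counts per embryo summed to between 41489332 and 58470286, and 3 counts, taken as the limit of detection, correspond to between 2.37 and 3.49 normalized counts (raw counts divided by the TMM scaling of each library). This limit covers counting error only.

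Dnmt3b, the targeted gene, had 7263, 13956 and 6280 normalized counts in WT embryos 1, 2 and 3 and 4063, 4541 and 4740 in Dnmt3b-/- embryos 1, 2 and 3. The groups did not overlap, and the log2 fold change was -1.04 (SE 0.27, adjusted p = 0.0169 by the quasi-likelihood test of edgeR). The value lay close to 2-fold, and it was -0.61 without WT embryo 2 (adjusted p = 0.00260). The labels of the RNA-Seq libraries give no sex. Xist, the RNA that coats the inactive X chromosome, had 14670 and 13449 normalized counts in WT embryos 1 and 3 and 21847 in Dnmt3b-/- embryo 2, against at most 11.0 in the other 3 embryos. The Y-linked genes Ddx3y, Eif2s3y, Kdm5d and Uty had 1948 to 4805 normalized counts in those other 3 embryos, WT 2 and Dnmt3b-/- 1 and 3. The Xist-positive embryos thus made up 2 of 3 in the WT group and 1 of 3 in the Dnmt3b-/- group.

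The promoters of 4 Rhox4 copies, of Gm9 and of Rhox5 are shown. Rhox4e, Rhox4g and Gm9 were called higher in Dnmt3b-/- embryos. Rhox5 was tested and not called, and Rhox4c and Rhox4f had too few reads to be tested. Each line holds the 250 bases before the annotated transcript start (RefSeq, GRCm38.p6), read 5′ to 3′ on the strand of the gene, with each CpG in capitals. Rhox4e lies on the plus strand with its window at chrX:37557162-37557411, and Rhox4g on the minus strand with its window at chrX:37651328-37651577. The windows of Rhox4c (plus strand, chrX:37480087-37480336) and Rhox4f (minus strand, chrX:37607687-37607936) belong to copies that hardly had a read. The windows of Gm9 (minus strand, chrX:37211042-37211291) and Rhox5 (plus strand, chrX:37754358-37754607) belong to single-copy genes.
Rhox4e: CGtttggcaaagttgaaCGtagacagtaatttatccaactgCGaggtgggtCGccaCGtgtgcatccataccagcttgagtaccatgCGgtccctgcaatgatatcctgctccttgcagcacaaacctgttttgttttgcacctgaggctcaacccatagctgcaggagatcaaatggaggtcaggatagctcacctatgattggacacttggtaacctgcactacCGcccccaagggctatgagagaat
Rhox4g: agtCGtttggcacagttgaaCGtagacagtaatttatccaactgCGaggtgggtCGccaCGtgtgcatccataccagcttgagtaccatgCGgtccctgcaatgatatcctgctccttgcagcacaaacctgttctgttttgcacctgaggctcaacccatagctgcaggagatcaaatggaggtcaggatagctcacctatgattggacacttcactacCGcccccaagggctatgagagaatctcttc
Rhox4c: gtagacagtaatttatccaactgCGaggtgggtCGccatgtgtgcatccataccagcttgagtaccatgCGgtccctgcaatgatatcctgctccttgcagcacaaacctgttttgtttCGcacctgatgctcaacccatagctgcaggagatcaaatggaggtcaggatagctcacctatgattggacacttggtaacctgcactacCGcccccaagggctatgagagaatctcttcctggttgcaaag
Rhox4f: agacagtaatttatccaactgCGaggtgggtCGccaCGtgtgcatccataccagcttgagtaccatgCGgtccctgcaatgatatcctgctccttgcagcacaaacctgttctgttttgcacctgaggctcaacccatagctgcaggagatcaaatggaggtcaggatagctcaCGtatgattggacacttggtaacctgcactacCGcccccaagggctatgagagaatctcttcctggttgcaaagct
Gm9: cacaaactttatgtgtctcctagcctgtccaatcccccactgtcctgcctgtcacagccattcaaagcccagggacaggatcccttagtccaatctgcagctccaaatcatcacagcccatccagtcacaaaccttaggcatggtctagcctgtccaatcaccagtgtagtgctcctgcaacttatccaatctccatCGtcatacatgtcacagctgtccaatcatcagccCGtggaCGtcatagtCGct
Rhox5: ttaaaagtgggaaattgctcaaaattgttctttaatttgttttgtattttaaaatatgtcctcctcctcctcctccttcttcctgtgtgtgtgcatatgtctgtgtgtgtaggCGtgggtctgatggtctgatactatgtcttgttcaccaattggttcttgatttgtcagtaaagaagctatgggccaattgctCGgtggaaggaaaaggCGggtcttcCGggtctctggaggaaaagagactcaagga

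The promoter table held a window for 26 members and none for Rhox2f, Rhox4d, Rhox6, Rhox7, Rhox8 and Rhox9. Among the 6 Rhox4 copies with a window, the aligned parts were nearly the same, with 97.08% to 100% of 189 to 248 aligned bases identical in the 15 pairs. Rhox4e and Rhox4c differed at 3 of 232 aligned bases, and Rhox4e and Rhox4g at 2 of 241, beside 9 bases that Rhox4g lacks. In the full window of 300 bases, which reaches 50 bases past the start, the Rhox4 copies held 10 to 12 CpGs, Gm9 and Rhox5 held 5 each, and the 32851 windows of the whole table had a median of 7. The E-box CACGTG, which is its own reverse complement, was present in the windows of Rhox4b, Rhox4e, Rhox4f and Rhox4g and in 7.15% of all windows of the table. The E2F-type motif TCCCGC, searched on both strands, was in 0 of the 26 member windows and in 19.98% of all windows. The motif TATAAA, also searched on both strands, was in the Rhox12 window alone and in 13.62% of all windows. These letters are a description of the windows only.

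In WT embryos most members had few or no reads, with the exception of Rhox5 and, at a lower level, Rhox6. Of the 32 members, 14 had 0 reads in all 6 embryos and 18 had at least 1 read. Rhox5 provided 93.6%, 97.3% and 91.7% of all member reads in WT embryos 1, 2 and 3, and 69.5%, 71.9% and 58.1% in Dnmt3b-/- embryos 1, 2 and 3. Without Rhox5, the other 31 members together had 80, 88 and 58 raw reads in WT embryos 1, 2 and 3 against 758, 339 and 490 in Dnmt3b-/- embryos 1, 2 and 3. This sum was 71.7 ± 25.8 normalized counts in WT and 568 ± 182 in Dnmt3b-/- embryos (SD, n = 3 each), a ratio of 7.93, and the groups did not overlap. With Rhox5 included the ratio was 0.983 and the groups overlapped.

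**Figure D1:**
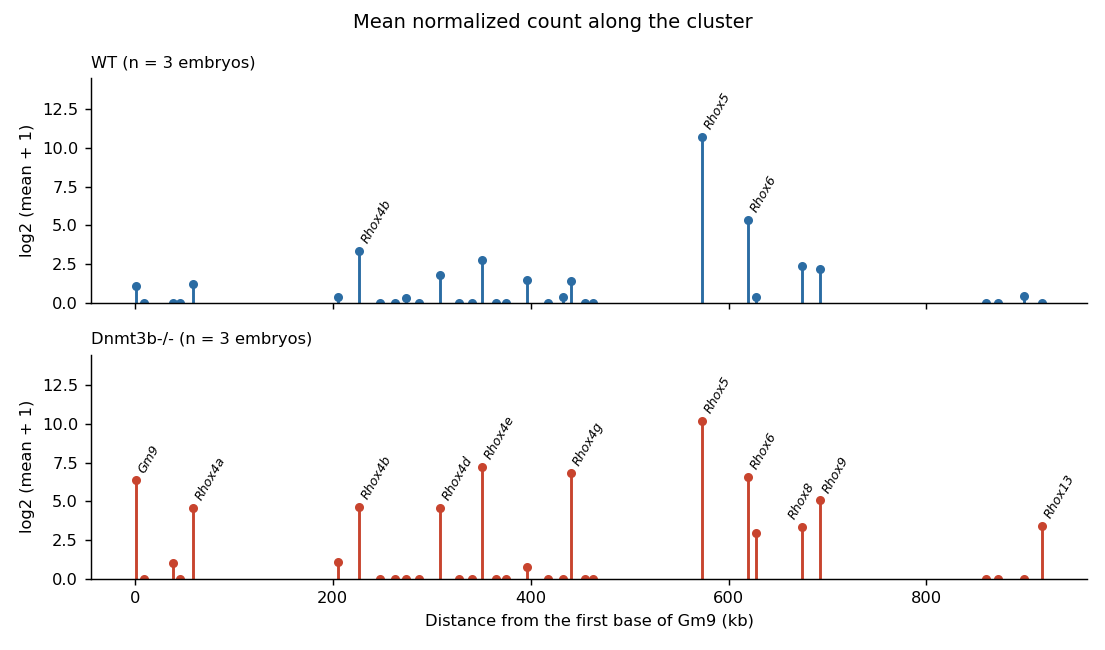
Mean normalized count of each member, as log2 (mean + 1), against the distance of its midpoint from the first base of Gm9 in kb, for 3 WT embryos (top) and 3 Dnmt3b-/- embryos (bottom). Rhox5 is the tallest line in both panels, and Gm9 and several Rhox4 copies stand out in the lower panel only.

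Genes were tested where the 6 embryos averaged at least 10 counts, which 9 members passed and 23 did not. A gene was called when it differed more than 2-fold with an adjusted p below 0.05. By this rule 6 members were called higher in Dnmt3b-/- embryos, Gm9, Rhox4a, Rhox4d, Rhox4e, Rhox4g and Rhox9, whereas 2.12% of all 15114 tested genes were called higher. The 0 members called lower compare with 3.78% of all tested genes, and 0 members were lower at an unadjusted p under 0.05. The 0 stood in every alternative run, DESeq2 and limma voom included. Apart from Rhox5 and Rhox6, however, the tested members had at most 9.15 normalized counts on average in WT embryos and could hardly be called lower. Members with few reads in WT embryos passed the filter only through the Dnmt3b-/- embryos, so the count among tested members is not a count over the cluster. All 3 Dnmt3b-/- embryos lay above all 3 WT embryos for 7 of the 9 tested members, against 25.3% of all tested genes. Over all 32 members, those under the filter included, the count was 9. It has no matching share here, since the 25.3% is over tested genes only.

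**Figure D2:**
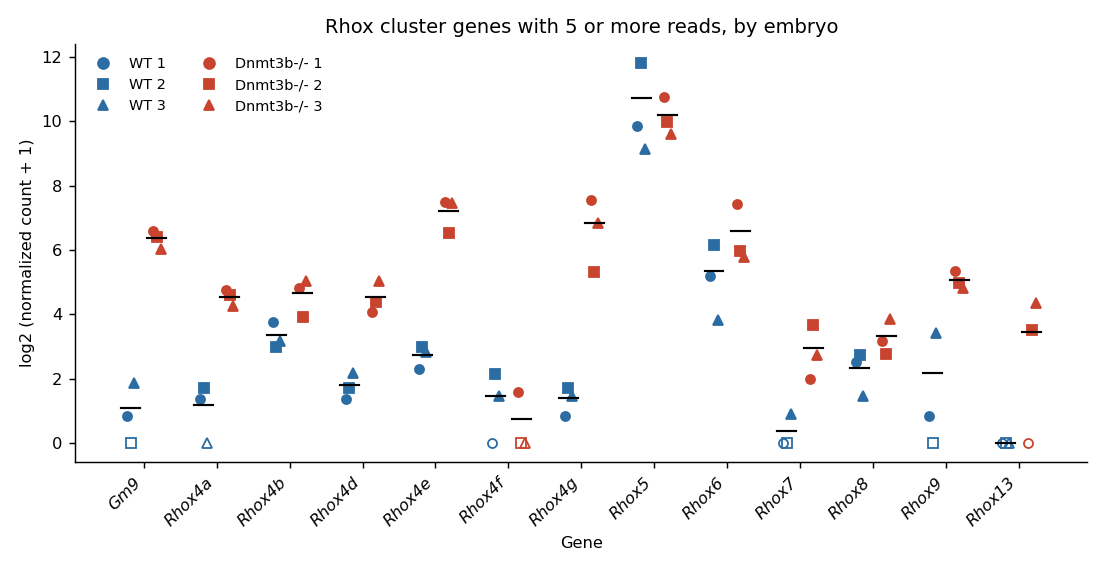
Normalized counts, as log2 (count + 1), of the members with at least 5 reads in all, in 3 WT (blue) and 3 Dnmt3b-/- (red) embryos. Symbols give the embryo, open symbols a count of 0 and black lines the log2 of the group mean plus 1; the points of Rhox5 overlap between the genotypes, while those of Gm9, Rhox4a, Rhox4d, Rhox4e and Rhox4g do not.

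Gm9 lies just before Rhox1 and all of its sequence is unique in the genome. It had 1, 0 and 3 raw reads in WT embryos 1, 2 and 3 and 95, 72 and 57 in Dnmt3b-/- embryos 1, 2 and 3. All WT embryos were at or under the limit of 3 counts. Against that limit per library the Dnmt3b-/- mean was at least 28.8-fold higher. The fitted log2 fold change was 5.93 (SE 0.67, adjusted p = 0.000821), and it was called with any embryo left out. Its level in Dnmt3b-/- embryos was 1.01 ± 0.19 FPKM (counts scaled to exon length and library size, SD, n = 3).

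In the alpha part, Rhox1 had 0 reads in every embryo, although all of its sequence is unique. The 6 Rhox3 copies also had 0 reads. The 8 Rhox2 copies had 2 reads in all WT embryos together and 6 in all Dnmt3b-/- embryos together, which fell on Rhox2a, Rhox2b and Rhox2g. At this depth no difference in Rhox2 or Rhox3 was detectable. In the Rhox3 group, Rhox3a and Rhox3e have no stretch of 75 bases inside an exon, the length of a read, that occurs at 1 place only. A count of 0 there says little about their expression if reads with several places were not counted. The other Rhox3 copies have 22.3% to 52.0% of such stretches and the Rhox2 copies 3.52% to 73.2%.

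Rhox4 was the group of copies that gained reads. The 7 copies together had 27, 21 and 24 raw reads in WT embryos 1, 2 and 3 and 437, 161 and 327 in Dnmt3b-/- embryos 1, 2 and 3. The sum was 22.2 ± 1.6 normalized counts in WT and 331 ± 129 in Dnmt3b-/- embryos (SD, n = 3 each), 14.9-fold apart without overlap. This sum does not depend on how reads were divided among the copies in the table. The 2 Dnmt3b-/- embryos with Y-linked transcripts had 436 and 369 normalized counts and the Xist-positive one 187, and the WT embryos had 21.2 to 24.03 whatever their Xist level. The part of the sex of the embryos in these values was not tested.

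The Rhox4 copies differed among themselves. Rhox4e had 5, 6 and 7 raw reads in WT embryos 1, 2 and 3 and 178, 79 and 154 in Dnmt3b-/- embryos 1, 2 and 3 (log2 fold change 4.70, SE 0.44, adjusted p = 0.000506). Rhox4g had 1, 2 and 2 against 188, 33 and 101 raw reads, at least 40.3-fold higher against the limit (log2 fold change 6.09, SE 0.78, adjusted p = 0.00110). Both were called with any embryo left out, and Rhox4g was the more variable of the pair, with Dnmt3b-/- embryo 2 far below the other two.

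Rhox4a had 2, 2 and 0 raw reads in WT embryos and 26, 20 and 16 in Dnmt3b-/- embryos, at least 7.97-fold higher (log2 fold change 4.05, SE 0.80, adjusted p = 0.00574). Rhox4d had 2, 2 and 4 against 16, 17 and 28 (log2 fold change 3.13, SE 0.64, adjusted p = 0.00672). With 1 embryo left out, Rhox4a passed the filter in 4 of 6 fits and Rhox4d in 5 of 6, and each was called in all of these. Rhox4a fell under the filter without Dnmt3b-/- embryo 1 or 2, and Rhox4d without Dnmt3b-/- embryo 3. Rhox4b, the most abundant copy in WT embryos, had 16, 6 and 9 against 27, 12 and 28 raw reads. In normalized counts Rhox4b was 9.15 ± 3.07 in WT and 24.2 ± 9.2 in Dnmt3b-/- embryos (SD, n = 3 each), without overlap, but did not pass the test (log2 fold change 1.38, SE 0.55, adjusted p = 0.0831). Rhox4c had 1 read in WT embryo 1 and 0 in the other embryos, and Rhox4f had 0, 3 and 2 reads in WT and 2, 0 and 0 in Dnmt3b-/- embryos.

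**Figure D3:**
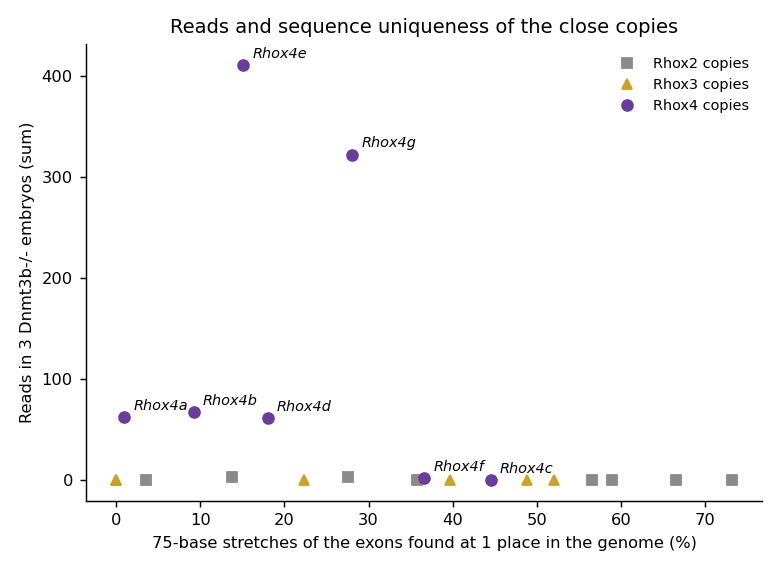
Raw reads summed over 3 Dnmt3b-/- embryos against the percentage of 75-base stretches of the exons with 1 place in the genome, for the copies of Rhox2, Rhox3 and Rhox4. Rhox4c and Rhox4f, the Rhox4 copies with the largest unique share, have 0 and 2 reads, and Rhox4e and Rhox4g have the most.

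A read can be placed on a single Rhox4 copy where its own sequence or that of its mate is unique. The shares given here are for single stretches inside 1 exon and leave out mates and splice junctions. Of the 75-base stretches of the spliced Rhox4a transcripts, 73.2% also occur in another member. The share of 75-base stretches found at 1 place was 44.6% for Rhox4c and 36.6% for Rhox4f, and these copies stayed at 0 to 3 counts per embryo. It was 28.1% for Rhox4g, 18.02% for Rhox4d, 15.1% for Rhox4e and 9.22% for Rhox4b. For Rhox4a 6 of 623 stretches were unique, so that its 62 reads in Dnmt3b-/- embryos cannot be assigned to this copy with confidence, and the values of single Rhox4 copies are uncertain in the same way. Rhox4c and Rhox4f share nearly all of their promoter bases with Rhox4e and Rhox4g, as the sequences above show.

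In the beta part, Rhox5 had by far the highest level per length. It had 928, 3583 and 567 normalized counts in WT embryos 1, 2 and 3 and 1724, 1007 and 768 in Dnmt3b-/- embryos 1, 2 and 3, so the groups overlapped. Its mean level was 43.8 ± 42.6 FPKM in WT and 30.1 ± 12.9 FPKM in Dnmt3b-/- embryos (SD, n = 3 each), and the WT mean exceeded that of 93.12% of 23846 genes. The log2 fold change was -0.53 (SE 0.62, adjusted p = 0.537). The sign rested on WT embryo 2, since without it the value was 0.64 (adjusted p = 0.166).

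**Figure D4:**
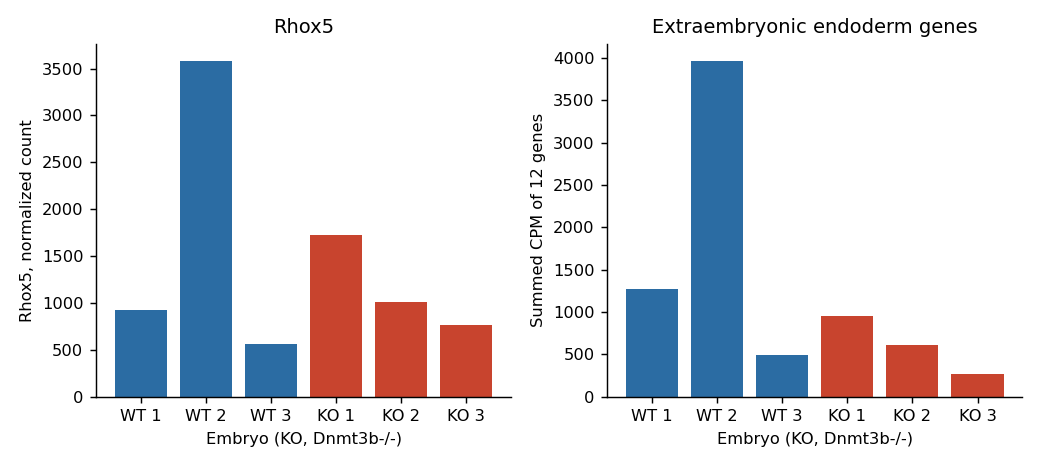
Normalized count of Rhox5 (left) and CPM (counts scaled to library size) summed over 12 extraembryonic endoderm genes (right) in each of 3 WT (blue) and 3 Dnmt3b-/- (red, KO) embryos. WT embryo 2 has the tallest bar in both panels, at 3583 normalized counts and 3966 CPM, and the order of the other embryos differs between the panels.

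Rhox5 is known to be expressed in extraembryonic tissue. All 12 listed extraembryonic endoderm genes were tested, none was at 0, and their summed level was 1277, 3966 and 488 CPM in WT embryos 1, 2 and 3 and 955, 616 and 275 CPM in Dnmt3b-/- embryos 1, 2 and 3. The most abundant were Apob, a lipoprotein component, and Cubn, an endocytic receptor. WT embryo 2 was the highest for Rhox5 and for this list, but the order of the other embryos differed. The next highest was Dnmt3b-/- embryo 1 for Rhox5 and WT embryo 1 for the list. Amn, the partner of Cubn, was the 1 gene of the list called, lower in Dnmt3b-/- embryos (log2 fold change -2.59, adjusted p = 0.0429). Its groups overlapped, at 158 to 1545 normalized counts in WT and 45.2 to 221 in Dnmt3b-/- embryos. The call of Amn held in 2 of the 6 fits with 1 embryo left out. The median log2 fold change of the list was -1.06 beside -0.03 for all tested genes. The number of genes of the list called lower depended on the processing, at 3 with no filter or without WT embryo 3, and at 0 with limma voom, with the GC and length trend removed, or without WT embryo 1 or 2 or Dnmt3b-/- embryo 2 or 3. The part of extraembryonic tissue in the Rhox5 values was not tested, and in whole embryos fewer cells of a type and less RNA per cell cannot be told apart.

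The other beta genes were much lower. Rhox6 had 45, 61 and 15 raw reads in WT embryos and 172, 53 and 48 in Dnmt3b-/- embryos, which overlapped (log2 fold change 1.30, SE 0.65, adjusted p = 0.156). Rhox6 was called in 1 of the 6 fits with 1 embryo left out, without WT embryo 2, at 1.97 (adjusted p = 0.0457). The value fell to 0.57 without Dnmt3b-/- embryo 1 (adjusted p = 0.528) and to 0.88 without WT embryo 3 (adjusted p = 0.317). Rhox9, a close relative of Rhox6, had 1, 0 and 11 raw reads in WT and 40, 26 and 24 in Dnmt3b-/- embryos (log2 fold change 3.13, SE 0.94, adjusted p = 0.0317). The call of Rhox9 was held in 2 of the 6 fits with 1 embryo left out, those without WT embryo 2 and without WT embryo 3, and the log2 fold change went from 2.63 to 5.80. It was lost without WT embryo 1 (adjusted p = 0.107) and without Dnmt3b-/- embryo 1 (adjusted p = 0.0715), 2 (adjusted p = 0.0707) or 3 (adjusted p = 0.0503).

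Rhox7, matched to Rhox7a of RefSeq, had 0, 0 and 1 raw reads in WT and 3, 10 and 5 in Dnmt3b-/- embryos. Rhox8, which is known from Sertoli and granulosa cells, had 6, 5 and 2 against 8, 5 and 12. Both were under the filter, and their normalized counts did not overlap between the genotypes, although for Rhox8 the nearest embryos were 5.72 and 5.82 normalized counts. The beta part without Rhox5 summed to 47.4 ± 25.6 normalized counts in WT and 144 ± 68 in Dnmt3b-/- embryos (SD, n = 3 each), a ratio of 3.04 without overlap, of which Rhox6 gave 67.2% of the Dnmt3b-/- reads. With Rhox5 the beta sum had a ratio of 0.753 and overlapped.

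In the gamma part, Rhox10 and Rhox11 had 0 reads in every embryo and Rhox12 had 1 read, in WT embryo 2. Rhox13, which is expressed in germ cells, had 0 reads in the 3 WT embryos and 0, 9 and 17 in Dnmt3b-/- embryos 1, 2 and 3. All sequence of these 4 genes is unique. Rhox13 was under the filter and was not tested.

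**Figure D5:**
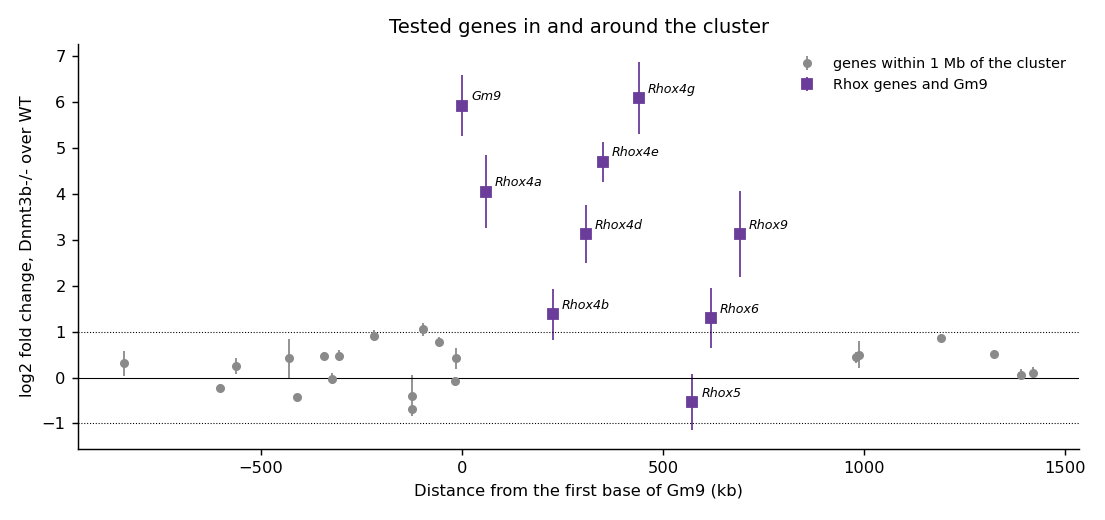
Log2 fold change between the genotypes (Dnmt3b-/- over WT), with its standard error, for the tested members (purple squares) and the tested genes within 1 Mb (grey circles) against the distance from the first base of Gm9 in kb; dotted lines mark a 2-fold change. Gm9, Rhox4g and Rhox4e have the highest values, and among the flanking genes Upf3b alone is past the upper line.

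Of 30 other genes within 1 Mb of the cluster, 21 were tested, 1 was called higher and 0 lower. An adjusted p below 0.05 in either direction was found for 10 of them, beside 186 of 573 X-linked genes outside the cluster. The called gene, Upf3b, encodes a factor of nonsense-mediated decay and had 2154 to 2408 normalized counts in WT and 3680 to 5673 in Dnmt3b-/- embryos (log2 fold change 1.05, SE 0.14, adjusted p = 0.00142). It lay near the 2-fold threshold, and the count fell to 0 with total counts as scaling, after removal of a GC and length trend, or without Dnmt3b-/- embryo 3, and was 2 without Dnmt3b-/- embryo 1. The nearest tested genes were Rnf113a1, 16035 bp before Gm9 (log2 fold change 0.42, adjusted p = 0.181), and Zbtb33, which encodes the methyl-CpG-binding protein Kaiso, 59827 bp after Rhox13 (log2 fold change 0.44, adjusted p = 0.0239). The median log2 fold change of the 21 flanking genes was 0.42. Among 573 tested X-linked genes outside the cluster the median was 0.18, with 4.89% called higher and 0.698% lower, and among 14458 autosomal genes it was -0.04, with 1.97% higher and 3.90% lower.

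The trophoblast list served as a check for placental tissue, in which several Rhox genes are active. Of 16 listed genes 8 were tested and 0 were called higher, and the summed level was 364 to 431 CPM in WT and 481 to 627 CPM in Dnmt3b-/- embryos. The placental genes Tpbpa, Syna, Synb, Prl3d1 and Prl2c2 were at 0 in all 6 embryos. Rtl1 was called lower (log2 fold change -2.30, adjusted p = 0.0374), a call lost with a mean of at least 50 counts, with the GC and length trend removed, and without WT embryo 1 or 3 or Dnmt3b-/- embryo 3. Elf5, a transcription factor of trophoblast stem cells, was above all WT embryos in the 3 Dnmt3b-/- embryos but did not pass the test (log2 fold change 1.08, adjusted p = 0.0802). Neither did Ascl2 (1.36, adjusted p = 0.118), Plac1 (0.54, adjusted p = 0.465) or Hand1 (0.39, adjusted p = 0.240). Eomes went the other way and was not called (-1.27, adjusted p = 0.312). Gcm1 had 17, 8 and 6 raw reads in WT and 8, 0 and 8 in Dnmt3b-/- embryos. Esx1 had 9, 14 and 3 against 2, 0 and 3, and Prl3b1 had 8, 0 and 4 against 0, 0 and 0, all under the filter. The median log2 fold change of the 8 tested genes was 0.46, and 1 gene was called higher without Dnmt3b-/- embryo 1. The most abundant were Peg10, an imprinted gene also active in the embryo (log2 fold change 0.52, adjusted p = 0.00767), and Cdx2 (0.00, adjusted p = 0.996). Peg10 averaged 15439 normalized counts in WT and 22207 in Dnmt3b-/- embryos, and Cdx2 2826 and 2829. The summed level of the list therefore mainly follows Peg10 and says little about the other genes. The part of trophoblast in the member values was not tested.

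Among 12 listed primordial germ cell genes 10 were tested, 2 were called higher and 0 lower. Ddx4, an RNA helicase of germ cells, had 42.6 to 160 normalized counts in WT and 854 to 1002 in Dnmt3b-/- embryos (log2 fold change 3.19, SE 0.40, adjusted p = 0.00104). Dazl, an RNA-binding protein of germ cells, had 4.41 to 15.0 against 94.2 to 324 (log2 fold change 4.44, SE 0.60, adjusted p = 0.00134). The most abundant of the list, Kit and Prdm1, had log2 fold changes of 0.03 (adjusted p = 0.880) and -0.17 (adjusted p = 0.484). Of the other tested genes, Pou5f1 (-2.64, adjusted p = 0.0739) and Nanog (-0.51, adjusted p = 0.487) went lower. Dppa3 (2.29, adjusted p = 0.0637), Ifitm3 (0.96, adjusted p = 0.00284), Dnd1 (0.24, adjusted p = 0.780) and Tfap2c (0.22, adjusted p = 0.493) went higher. None of these was called in the reported fit. Pou5f1 had 71.1, 837 and 68.8 normalized counts in WT and 29.0, 32.6 and 93.8 in Dnmt3b-/- embryos. Dppa3 had 7.11, 22.9 and 16.8 in WT and 34.0, 20.9 and 172 in Dnmt3b-/- embryos. For both genes the genotypes overlapped, with WT embryo 2 far above the rest for Pou5f1 and Dnmt3b-/- embryo 3 for Dppa3. The median log2 fold change of the list was 0.23. The summed level of the list was 62.9 to 83.5 CPM in WT and 82.1 to 112 CPM in Dnmt3b-/- embryos, and the part of germ cells in the member values was not tested.

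Homeobox genes of the paired-like class elsewhere in the genome, the class to which the Rhox genes belong, were compared beside them. Of 32 listed genes 30 were in the table and 18 were tested, and the median log2 fold change was 0.01. Otx1 was called higher (log2 fold change 1.34, adjusted p = 0.00544). The most abundant, Otx2 and Prrx1, had log2 fold changes of 0.16 (adjusted p = 0.327) and 0.61 (adjusted p = 0.0132).

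Of 11 methyltransferase and cofactor genes 10 were tested and Dnmt3b alone was called, lower, a call lost with limma voom (log2 fold change -0.95) and with the GC and length trend removed (-0.84, adjusted p = 0.0631). Uhrf1, which recruits DNMT1 to replicating DNA, had a log2 fold change of 0.54 (adjusted p = 0.00104), under 2-fold, and Dnmt1 had a value of 0.05 (adjusted p = 0.564). Of 11 repressors of germline genes all were tested and 0 were called, with 6 at an adjusted p below 0.05, beside 5185 of 14458 autosomal genes. The most abundant, Trim28 and Smchd1, had log2 fold changes of -0.39 (adjusted p = 0.00334) and 0.33 (adjusted p = 0.00778), both under 2-fold.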

How the data were processed

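Total RNA of single E8.5 embryos was depleted of ribosomal RNA, made into stranded libraries and read from both ends over 75 bases. Alignment by the authors was to mm10 with TopHat2 2.0.12, HTSeq-count 0.6.0 was run on RefSeq exons, and unnormalized counts for 24065 genes were deposited. The authors also deposited a normalized signal (counts divided by DESeq2 1.4.5 size factors), a log2 fold change and an adjusted p-value, none of which were used. Which RefSeq release was used, and whether counting was by strand, is not given in the sources used here. Reads with several places in the genome may have been lost, which bears on the close copies. The methylation libraries of the study were not analysed here.

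The members and lists were chosen with earlier results of these data known. The 15114 genes averaging at least 10 counts entered the edgeR 4.0.16 quasi-likelihood test (R 4.3.3, TMM scaling) with Benjamini-Hochberg adjustment. A call needed more than 2-fold change and an adjusted p below 0.05. The standard error is the size of the log2 fold change divided by the square root of F. An exact permutation test of 3 against 3 embryos cannot go below p = 0.1 and was not used. Sums over members have no test. Fold changes against embryos at or under 3 counts are lower bounds. FPKM and CPM values were computed from TMM-scaled counts and RefSeq exon lengths, with 99.09% of genes and all members matched by symbol or an older symbol. The 75-base stretches of the exons were searched in the whole primary assembly. Named genes were all members, Dnmt3b, Xist, 4 Y-linked genes, called or nearest genes within 1 Mb, and the called and 2 most abundant genes of each list, of which 1 result is not reported here. The other trophoblast and primordial germ cell genes and the nearest Rhox8 embryos were named with their values already seen. On simulated data for 14955 genes, edgeR recovered 87% of 100 genes changed 4-fold and 92% of 100 changed 8-fold, with 7 other genes called. Alternatives were other filters, scalings and tests (DESeq2 1.42.0, limma 3.58.1), a replicate block, a GC and length trend, Xist as covariate and each embryo left out in turn. Embryos were separate animals, and littermates may share effects not modelled.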

Additional observations from a re-analysis of the deposited data

How the results depend on the processing

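The count of members called higher was 6 in the reported fit, 2 (Rhox4e and Rhox4g) with a mean of at least 50 counts, where 4 members were tested, 5 with DESeq2, which gave no adjusted p for Rhox4a, and 4 to 7 with 1 embryo left out. The other filters, scalings and tests, the GC and length trend and the Xist covariate gave 6. The count called lower was 0 in all settings run, with few WT reads in most tested members to begin with. The log2 ratio of the summed beta part was -0.41, -0.40 with DESeq2 size factors and -0.46 with total counts, and went from -0.82 to 0.75 with 1 embryo left out, being above 0 without WT embryo 2 alone. The log2 fold change of Rhox5 went from -0.95 to 0.64 with 1 embryo left out and reversed without WT embryo 2. The flanking genes called higher were 1, 0 with total counts as scaling, 0 with the GC and length trend removed and 0 to 2 with 1 embryo left out. All tested genes called lower were 571 and 130 with the GC and length trend removed, and those called higher 320 and 311. Scaling by total counts moved the median over all tested genes from -0.03 to -0.11 on the log2 scale, with 246 genes called higher and 710 lower. The log2 fold change of Dnmt3b stayed negative in all settings, from -1.25 to -0.61, and its call was lost with limma voom, with the GC and length trend removed, and without WT embryo 2 or any 1 of the Dnmt3b-/- embryos. Embryos with the same replicate number did not deviate together (correlations of -0.11, -0.22 and -0.01 over genes). With 3 embryos per group, such correlations cannot show whether the numbers pair littermates. With the replicate block 6 members were called higher, 0 lower, and 265 and 516 of all genes. Dnmt3b (-0.95) was then no longer called and 3 extraembryonic endoderm genes were called lower. Members at 0 to 3 counts are limited by depth.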

Other observations

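Among 10 listed genes of gonadal somatic cells, in which several Rhox genes are known to be expressed, 7 were tested and 0 were called. The most abundant were Gata4, which is also on the extraembryonic endoderm list (log2 fold change -0.73, adjusted p = 0.101), and Sox9 (0.64, adjusted p = 0.0145, under 2-fold). The median log2 fold change of the list was -0.11. Tsix, the antisense partner of Xist, had 7.06 to 17.4 normalized counts in WT and 11.98 to 46.5 in Dnmt3b-/- embryos (log2 fold change 1.19, adjusted p = 0.177), and reads of Xist and Tsix cannot be told apart without a known strand setting.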
